A study of Rattus norvegicus with 68 samples.

Results

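The genes described here are 10 genes of airway mucus and of the secretory cells that make it: Muc5ac, Muc5b, Muc1, Muc4, Spdef, Foxa3, Agr2, Scgb1a1, Bpifa1 and Tff3. They were chosen by name, among 14217 genes measured. All 10 were on the array, each by 1 probe set, so the rule of taking the probe set with the highest mean left no choice between probe sets. RNA of nasal epithelial cells was hybridised to 68 Affymetrix Rat230_2 arrays, 1 for each male F344/CrlBR rat. The rats were 8 weeks old at the start and inhaled the gas with the whole body exposed, 6 h daily and 5 days a week. Groups of 4 animals breathed formaldehyde at 0, 0.7, 2, 6, 10 or 15 ppm for 5 d or 13 w, and at 0.7, 2, 6, 10 or 15 ppm for 4 w. These make 17 groups. At 4 w the 0.7 ppm group, which was itself exposed, served as the reference. The cells came by protease digestion from level II of the nose, with the lateral meatus and nasoturbinate kept and the maxilloturbinate and olfactory lining removed. The submitters describe the yield as mostly transitional and partly respiratory epithelium. The question was how these genes varied with dose and time.

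Airway mucus is a gel of secreted mucins, chiefly Muc5ac and Muc5b, made by goblet and other secretory cells and moved by the cilia of neighbouring cells. Membrane-bound mucins such as Muc1 and Muc4 stay on the cell surface and form a layer beneath the gel. The transcription factors Spdef and Foxa3 drive goblet cell differentiation in mouse airways, and Agr2, a disulphide isomerase of the endoplasmic reticulum, is needed for mucin folding in the mouse gut. Scgb1a1 is the secretoglobin of club cells, Bpifa1 a secreted surface-active host defence protein of the upper airway, and Tff3 a small trefoil peptide released with mucins.

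At 15 ppm for 13 w, Agr2, Muc1, Spdef, Tff3 and Bpifa1 were lower than at 0 ppm, by up to 0.82 on the log2 scale, in Muc1. RNA integrity numbers were also higher in that group, 8.90 ± 0.36 at 15 ppm against 7.57 ± 0.23 at 0 ppm (SD, n = 3 arrays with a value each). With that number as a covariate Agr2, Muc1 and Spdef were still called, and Tff3 and Bpifa1 were not (adjusted p of 0.514 and 0.295). That fit also leaves out the arrays with no number. Without those arrays and with no covariate, Bpifa1 was not called either (adjusted p = 0.0912). The gel-forming mucins Muc5ac and Muc5b were not called at any dose against 0 ppm or, at 4 w, against 0.7 ppm. Differences between animals were large for Muc5ac, whose pooled SD within groups was 0.836, higher than in 99.1% of genes. Across 14 comparisons of a dose with its reference, 140 tests of these genes gave 8 calls, 8 lower and 0 higher. A call is an adjusted p under 0.05 (limma, Benjamini-Hochberg over all genes of a comparison). At an unadjusted p under 0.05 there were 25 tests, 21 of them lower. The shares of all genes at that threshold were not counted but are at least those of the calls given next. The 25 are therefore not read as a result about these genes. Of all 14217 genes, calls in either direction took 0% at 0.7 ppm, 0.0281% at 2 ppm, 8.83% at 6 ppm, 15.5% at 10 ppm and 37.7% at 15 ppm for 5 d. For 13 w the shares were 0%, 0.00703%, 12.2%, 26.4% and 44.2% at the same doses. For 4 w, against 0.7 ppm, they were 0.0211% at 2 ppm, 3.28% at 6 ppm, 14.8% at 10 ppm and 37.4% at 15 ppm.

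Promoter windows are shown for the 5 genes called in at least 1 comparison, because their lower signals are the changes reported below. They run from 250 bases before to 50 after a RefSeq transcript start in the GRCr8 build, 5′ to 3′ on the strand of the gene. RefSeq windows were at hand for 8 of the 10 genes, all but Muc5ac and Muc5b. Capitals mark the letters TATAAA, the core of a TATA box. The Muc1 window is chr2:176933500-176933799, plus strand, and begins inside the annotated gene span. The Spdef window is chr20:5787636-5787935, minus strand. The Agr2 window is chr6:58435658-58435957, plus strand. The Bpifa1 window is chr3:163087715-163088014, plus strand. The Tff3 window is chr20:9199284-9199583, minus strand.
Muc1: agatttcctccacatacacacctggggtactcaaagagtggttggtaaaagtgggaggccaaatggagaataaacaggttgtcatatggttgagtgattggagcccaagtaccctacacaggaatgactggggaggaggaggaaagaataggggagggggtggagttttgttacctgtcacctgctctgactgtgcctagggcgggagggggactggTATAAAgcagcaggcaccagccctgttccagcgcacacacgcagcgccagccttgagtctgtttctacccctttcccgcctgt
Spdef: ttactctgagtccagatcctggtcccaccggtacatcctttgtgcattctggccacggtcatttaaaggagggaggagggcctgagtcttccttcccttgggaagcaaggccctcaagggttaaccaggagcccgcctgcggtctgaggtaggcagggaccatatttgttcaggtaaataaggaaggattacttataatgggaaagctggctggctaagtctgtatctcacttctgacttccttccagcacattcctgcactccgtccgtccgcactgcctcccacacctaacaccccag
Agr2: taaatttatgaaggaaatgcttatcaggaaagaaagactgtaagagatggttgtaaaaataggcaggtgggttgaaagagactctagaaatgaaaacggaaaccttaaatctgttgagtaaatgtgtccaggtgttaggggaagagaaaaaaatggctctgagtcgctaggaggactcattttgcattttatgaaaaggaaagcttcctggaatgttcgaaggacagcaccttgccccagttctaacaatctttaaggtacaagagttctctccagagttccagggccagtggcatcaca
Bpifa1: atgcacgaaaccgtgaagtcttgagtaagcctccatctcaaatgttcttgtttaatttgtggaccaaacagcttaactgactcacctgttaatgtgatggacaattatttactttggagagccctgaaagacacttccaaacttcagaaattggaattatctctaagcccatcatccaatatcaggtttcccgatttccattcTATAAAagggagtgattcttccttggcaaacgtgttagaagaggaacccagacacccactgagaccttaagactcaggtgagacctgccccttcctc
Tff3: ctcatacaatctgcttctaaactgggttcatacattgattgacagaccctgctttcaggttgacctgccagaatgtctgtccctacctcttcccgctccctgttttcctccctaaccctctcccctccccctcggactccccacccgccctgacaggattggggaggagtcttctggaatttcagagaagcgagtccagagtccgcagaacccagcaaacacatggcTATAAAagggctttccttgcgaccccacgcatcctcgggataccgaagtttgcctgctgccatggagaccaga

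The windows were searched on both strands for a FOXA motif (TGTTTAC), for an ETS core bound by SPDEF (CCGGAT) and for the TATA box core named above. The TATA box core occurred once in the windows of Muc1, Foxa3, Scgb1a1, Bpifa1 and Tff3, and in 14.2% of 33469 RefSeq promoter windows of the same length. Counted from the transcript start, its first base lay at -33 in Muc1, -47 in Bpifa1 and -23 in Tff3. It was not found in the windows of Spdef, Agr2 or Muc4. The Muc4 window (chr11:81558265-81558564, minus strand) lies inside the annotated gene span, which ends at 81575200. The Foxa3 window also lies inside its gene span. Other transcript starts of these genes were not searched. Neither the FOXA motif, which 3.78% of all windows held, nor the ETS core, which 6.64% held, was found in any of the 8 windows. No place matched more than 1 of these motifs. A match is a description of letters and says nothing of binding.

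The median log2 signal of an array was 6.82 to 6.96, and single values ran from 3.17 to 15.4. Ciliated markers averaged 8.24 to 9.17 over the 17 groups, and basal markers 10.8 to 11.8. Olfactory markers were bright despite the removal of that lining, averaging 10.2 to 11.9, with Omp, the olfactory marker protein, between 11.2 and 13.0. Obp1f and Obp3, odorant-binding proteins of nasal glands, were also bright, while Lcn1 and Smgc stayed at or under 4.01. The part that olfactory and gland cells have in the results was not tested. In a bulk sample, fewer cells of a type and less RNA per cell cannot be told apart, which holds for every change below.

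The 10 genes spanned almost the whole range of the array as log2 signals, which depend on each probe set and do not rank the genes by amount of RNA. Bpifa1 had the brightest probe set of all 14217 genes, with group means between 15.05 and 15.22 against a highest value of 15.4 on any array. Agr2 followed, 85th by brightness, with group means between 13.17 and 13.83. The gel-forming mucins had group means between 11.06 and 12.45 for Muc5b and between 9.32 and 11.64 for Muc5ac. Muc1 ranged from 9.68 to 10.54, Muc4 from 9.29 to 10.74, and Spdef from 7.75 to 8.66. The dimmest were Tff3 with 6.73 to 7.50, Scgb1a1 with 6.02 to 6.64 and Foxa3 with 5.12 to 5.45. Foxa3 stayed under a group mean of 6 in all 17 groups, so its values lie near the lower end of the scale. Scgb1a1, the club cell marker, was likewise dim in these cells.

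**Figure D1:**
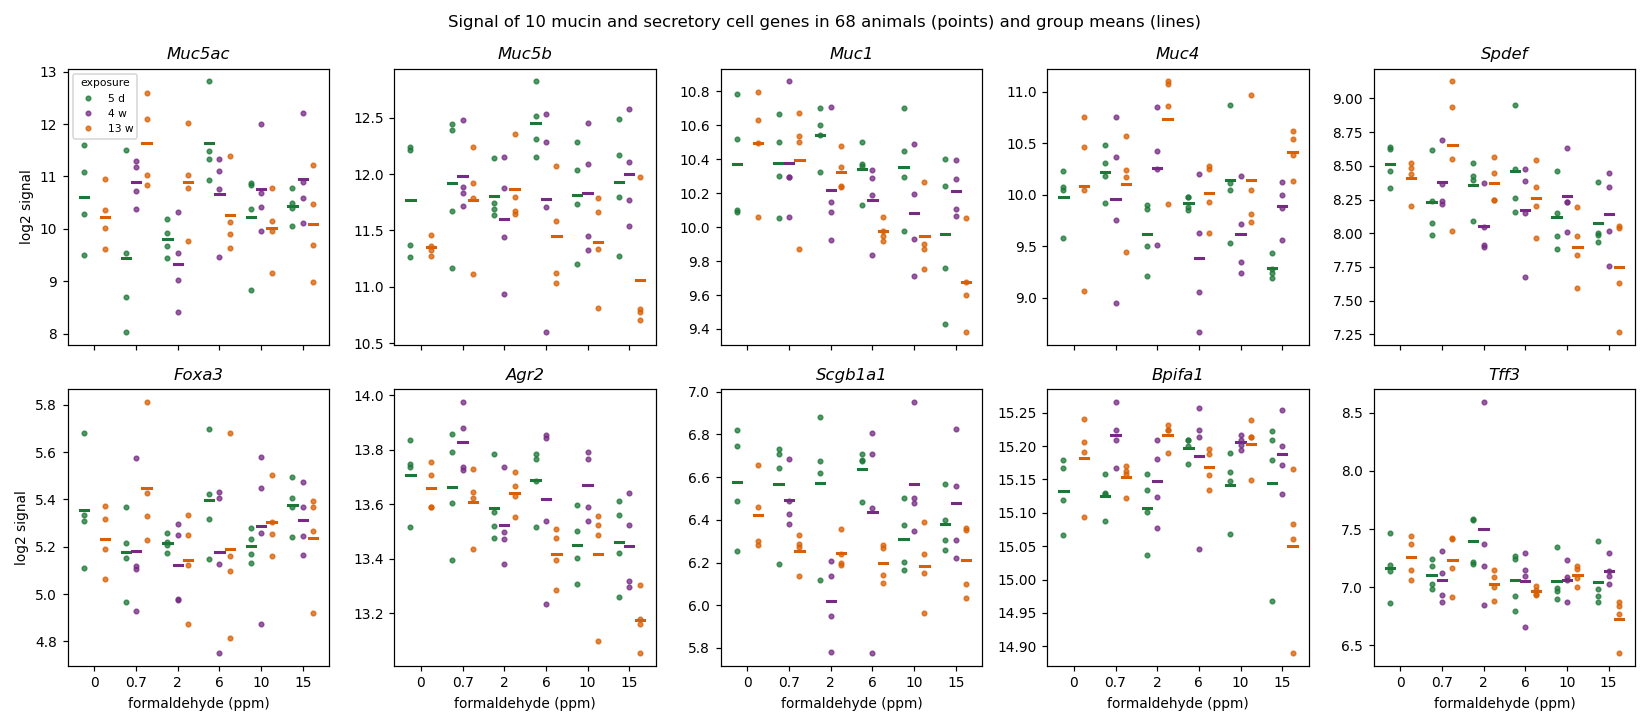
Log2 signal of the 10 genes by formaldehyde dose (ppm), with 1 point per animal, a line at each group mean (n = 4), and colours for 5 d, 4 w and 13 w. The 15 ppm 13 w group has the lowest group mean of Muc5b, Muc1, Spdef, Agr2, Bpifa1 and Tff3, while Muc5ac points spread over several log2 units within single groups; each panel has its own y axis that does not start at 0.

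Muc5ac, the inducible gel-forming mucin of goblet cells, gave no dose call, and its group means followed no steady order of dose. The animals of 15 ppm for 13 w had signals of 11.21, 10.48, 9.68 and 8.98, against 9.61, 10.95, 10.36 and 10.02 at 0 ppm. These groups overlapped throughout, with a log2 change of -0.15 ± 0.58 (SE, n = 4 each, adjusted p = 0.862). The 15 ppm change was -0.18 ± 0.58 at 5 d (adjusted p = 0.842) and 0.06 ± 0.58 at 4 w (adjusted p = 0.954). The 95% intervals reached from -1.34 to 0.97 at 5 d and from -1.30 to 1.01 at 13 w, so changes of that size in either direction lie within the error of 4 animals per group.

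The highest Muc5ac mean stood at 6 ppm for 5 d and the lowest at 2 ppm for 4 w. At 5 d the animals of 6 ppm had 12.82, 11.33, 10.93 and 11.48, against 9.92, 10.18, 9.67 and 9.44 at 2 ppm. The groups did not overlap, and the difference was 1.84 ± 0.58, yet the adjusted p was 0.0589, against 3.05% of all genes called in that step between doses. With array weights the difference was 1.64 and was called (adjusted p = 0.0254). At 4 w the animals of 2 ppm had 9.54, 8.41, 10.32 and 9.03, against 10.72, 11.30, 10.38 and 11.18 at 0.7 ppm. These groups did not overlap either, with a change of -1.57 ± 0.58 and an adjusted p of 0.469, where 0.0211% of all genes were called. At 0.7 ppm the change against 0 ppm was -1.18 ± 0.58 at 5 d (adjusted p = 0.632) and 1.40 ± 0.58 at 13 w (adjusted p = 1), opposite in sign and neither called. With 0.7 ppm in place of 0 ppm as the reference, Muc5ac passed the test in 3 comparisons: 2.20 higher at 6 ppm for 5 d (adjusted p = 0.0116), and -1.62 at 10 ppm (0.0291) and -1.55 at 15 ppm (0.0235) for 13 w. The 0.7 ppm group had the lowest Muc5ac mean of all groups at 5 d and the highest of all groups at 13 w.

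Muc5b, the constitutive gel-forming mucin that mucociliary clearance needs in mice, also gave no dose call. Its signals at 15 ppm for 13 w were 11.98, 10.80, 10.71 and 10.77, against 11.46, 11.27, 11.36 and 11.33 at 0 ppm. In the exposed group 3 animals lay below all controls and 1, animal 375, above them, and the change was -0.29 ± 0.34 (adjusted p = 0.52). At 15 ppm it was 0.16 ± 0.34 at 5 d (adjusted p = 0.761) and 0.02 ± 0.34 at 4 w (adjusted p = 0.974). The highest group mean was 12.45 at 6 ppm for 5 d, with animals at 12.83, 12.15, 12.31 and 12.52, against 11.37, 11.26, 12.24 and 12.21 at 0 ppm. The groups overlapped there, and the change of 0.68 ± 0.34 had an adjusted p of 0.211.

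Muc1, a membrane-bound mucin with a signalling tail, had the largest fall among the 10 genes at 13 w. At 15 ppm the animals had 9.68, 10.05, 9.60 and 9.38, against 10.63, 10.06, 10.50 and 10.79 at 0 ppm. The groups only just did not overlap, since the highest exposed animal (10.05) and the lowest control (10.06) were nearly equal. Muc1 fell by 0.82 ± 0.19 on the log2 scale, to 56.8% of the level at 0 ppm (adjusted p = 0.000362). It also fell at 10 ppm, by 0.55 ± 0.19 (adjusted p = 0.0275), with animals at 9.87, 9.90, 10.26 and 9.75, which overlapped the controls. That call is lost when any 1 of the animals 225, 230, 341, 346 or 349 is left out, with adjusted p up to 0.114, and with 0.7 ppm as the reference (adjusted p = 0.0777).

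Muc1 changed along the doses at 13 w in small steps. Its group means were 10.49 at 0 ppm, 10.39 at 0.7 ppm, 10.33 at 2 ppm, 9.97 at 6 ppm, 9.95 at 10 ppm and 9.68 at 15 ppm. The animals of 6 ppm (9.92 to 10.06) lay below those of 2 ppm (10.23 to 10.48) without overlap, but none of the steps from 2 to 6, from 6 to 10 and from 10 to 15 ppm was called (adjusted p of 0.278 for 6 against 2 ppm). The groups of 6 and 10 ppm, and those of 10 and 15 ppm, overlapped. At 6 ppm the 4 animals lay between 9.92 and 10.06, only just below all controls, but the change of -0.52 ± 0.19 had an adjusted p of 0.066. At 15 ppm it was -0.41 ± 0.19 at 5 d (adjusted p = 0.0851) and -0.17 ± 0.19 at 4 w (adjusted p = 0.552).

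Muc4, the membrane-bound mucin that in rats also binds the receptor Erbb2, was not called at any dose. For 5 d its 15 ppm animals had 9.28, 9.20, 9.24 and 9.43, against 10.05, 9.58, 10.07 and 10.23 at 0 ppm. The groups did not overlap, but the change of -0.70 ± 0.32 had an adjusted p of 0.0867. At 13 w the animals of 15 ppm had 10.62, 10.54, 10.13 and 10.38, against 9.06, 10.46, 10.76 and 10.05 at 0 ppm, overlapping, with a change of 0.33 ± 0.32 (adjusted p = 0.437). The response at 15 ppm thus had opposite signs at 5 d and 13 w, and its difference, 13 w minus 5 d, was 1.03 ± 0.46 (unadjusted p = 0.0287, adjusted p = 0.129), where 15.3% of all genes were called.

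**Figure D2:**
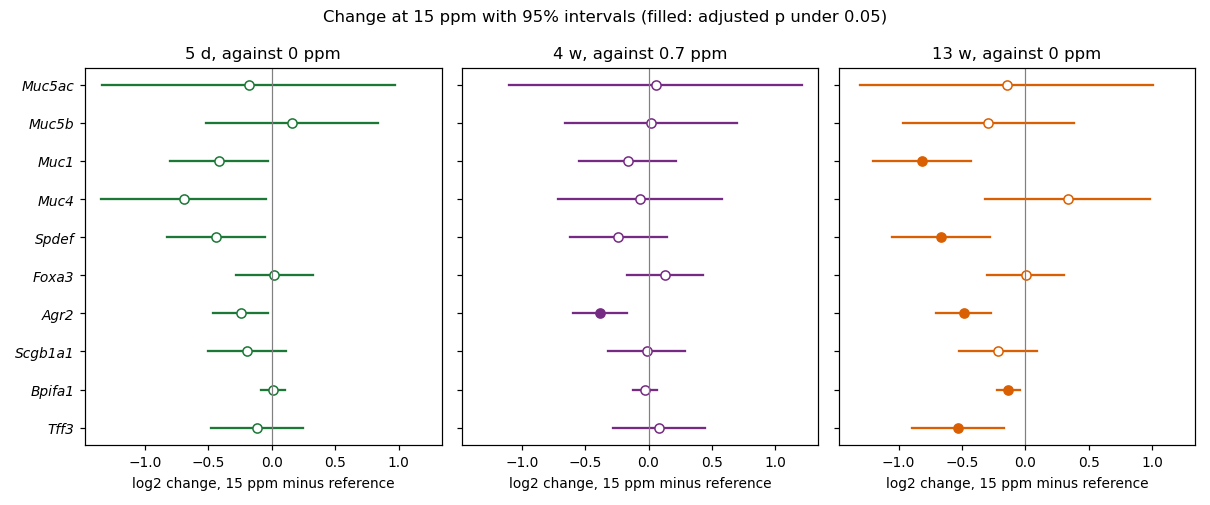
Log2 change at 15 ppm for each gene, with 95% intervals from limma, against 0 ppm at 5 d and 13 w and against 0.7 ppm at 4 w (n = 4 per group); filled points had an adjusted p under 0.05. The 6 filled points all lie left of 0, 1 of them at 4 w (Agr2) and 5 at 13 w, and the intervals of Muc5ac are the widest.

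Spdef, the ETS factor of goblet cells, was lower at the top doses of 13 w. At 15 ppm the animals had 8.04, 8.05, 7.63 and 7.26, against 8.44, 8.49, 8.20 and 8.52 at 0 ppm. The groups did not overlap, and Spdef fell by 0.66 ± 0.19, to 63.1% of the level at 0 ppm (adjusted p = 0.00341). At 10 ppm the animals had 8.19, 7.84, 7.98 and 7.59, with a fall of 0.51 ± 0.19 (adjusted p = 0.0407). They lay only just below all controls, since the highest of them (8.191) and the lowest control (8.199) were nearly equal. The 10 ppm call is lost with RNA integrity as a covariate (adjusted p = 0.174), without the arrays that have no RNA integrity number (0.0783), with only the arrays of the times compared (0.0668), and without any 1 of the animals 225, 226, 230, 346 or 349 (up to 0.167). At 15 ppm the change was -0.44 ± 0.19 at 5 d (adjusted p = 0.0653) and -0.24 ± 0.19 at 4 w (adjusted p = 0.366). The group means at 13 w were 8.41 at 0 ppm, 8.66 at 0.7 ppm, 8.38 at 2 ppm, 8.26 at 6 ppm, 7.90 at 10 ppm and 7.75 at 15 ppm, and no step between 2, 6, 10 and 15 ppm was called.

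Foxa3, a forkhead factor of goblet cells, changed by 0.02 ± 0.15 at 5 d, 0.13 ± 0.15 at 4 w and 0.00 ± 0.15 at 13 w at 15 ppm (adjusted p of 0.936, 0.55 and 0.993). Its signals were low in every group. Only 19.7% of its variance lay between groups, against a median of 46.9% over all genes.

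Agr2, the mucin-folding isomerase, was called lower at both longer times. Its signals at 15 ppm for 13 w were 13.30, 13.16, 13.18 and 13.05, against 13.75, 13.59, 13.71 and 13.59 at 0 ppm. The groups did not overlap, and Agr2 fell by 0.49 ± 0.11, to 71.4% of the level at 0 ppm (adjusted p = 0.000153). At 4 w the animals of 15 ppm had 13.64, 13.32, 13.30 and 13.52, against 13.88, 13.98, 13.73 and 13.74 at 0.7 ppm. These groups did not overlap either, and Agr2 fell by 0.38 ± 0.11 (adjusted p = 0.00325). Animals of 15 ppm for 5 d had 13.42, 13.26, 13.56 and 13.61, against 13.51, 13.75, 13.74 and 13.83 at 0 ppm, overlapping, with a change of -0.25 ± 0.11 (adjusted p = 0.0652).

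Agr2 at 6 and 10 ppm for 13 w lay below all controls as well, with changes of -0.24 ± 0.11 at each dose, but neither was called (adjusted p of 0.138 and 0.0867). The 15 ppm falls of Agr2, Muc1 and Spdef at 13 w and of Agr2 at 4 w held under each of the 9 alternative settings, of which the mean of all probe sets could not move genes with 1 probe set, and without each of the 8 animals in turn. The responses were not shown to differ between times. For each of the 10 genes, 5 differences of responses were tested, and the difference between 0 ppm at 13 w and 5 d. Of these 60 tests limma called 0. An unadjusted p under 0.05 was reached by 5. The shares of all genes at that threshold were not counted but are at least those of the calls given next. The 5 are therefore not read as a result about these genes. Among all genes the calls were 0%, 0.00703% and 15.3% for 13 w against 5 d at 6, 10 and 15 ppm. With 0.7 ppm as the reference at 15 ppm they were 3.45% for 4 w against 5 d and 0.0633% for 13 w against 4 w, and for 0 ppm they were 2.24%.

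Tff3, the trefoil peptide, was called at 15 ppm for 13 w and at no other dose. The animals had 6.43, 6.77, 6.87 and 6.84, against 7.37, 7.06, 7.15 and 7.44 at 0 ppm. The groups did not overlap, and Tff3 fell by 0.53 ± 0.18, to 69.4% of the level at 0 ppm (adjusted p = 0.014). Its signals at 15 ppm were dim, near the array medians of 6.82 to 6.96, so that percent is one of signal and may differ for RNA. With RNA integrity as a covariate the change of Tff3 was -0.21 (adjusted p = 0.514), and the call is also lost without animal 230 (0.0503) or 375 (0.0678). Animal 272 at 2 ppm for 4 w had the highest Tff3 signal of all arrays, 8.59, and the lowest RNA integrity number, 5.4. The part of that animal in the fit with the covariate was not tested.

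Bpifa1 lay close to the highest value on any array, with the least spread of the 10 genes, so the size of its change cannot be read as a fold or ranked against the others. Some animals of different groups had the same rounded value. It was 15.2085 in animal 299 at 6 ppm for 5 d and in animal 272 at 2 ppm for 4 w. Whether the signal of Bpifa1 was compressed near that highest value was not tested. In the 15 ppm group of 13 w it had 15.17, 15.06, 14.89 and 15.08, against 15.19, 15.24, 15.21 and 15.09 at 0 ppm. The groups overlapped, and the signal of Bpifa1 fell by 0.13 ± 0.05 (adjusted p = 0.0163). It was also lower at 15 than at 10 ppm for 13 w, by 0.15 ± 0.05 (adjusted p = 0.0208), where 4.07% of all genes were called lower. This was the only call for these genes among 9 steps between neighbouring doses. Calls in either direction among all genes were 3.05%, 1.02% and 15.2% at 5 d, 2.94%, 0.577% and 6.29% at 4 w, and 8.82%, 3.98% and 12.6% at 13 w, for 6 against 2, 10 against 6 and 15 against 10 ppm. The call against 0 ppm is lost with RNA integrity as a covariate (adjusted p = 0.295), with cyclic loess (0.0545), with 0.7 ppm as the reference (0.0657), without the arrays that have no RNA integrity number (0.0912), and without animal 226 (0.0657) or 378 (0.187). The step is lost with cyclic loess (adjusted p = 0.224), with that covariate (0.0625) and without animal 341 (0.0564), 348 (0.0692) or 378 (0.22).

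Scgb1a1 was not called at any dose. At 15 ppm its change was -0.20 ± 0.15 at 5 d (adjusted p = 0.347), -0.02 ± 0.15 at 4 w (adjusted p = 0.951) and -0.21 ± 0.15 at 13 w (adjusted p = 0.272). Its lowest group was 2 ppm for 4 w, where the animals had 6.21, 6.14, 5.95 and 5.78, against 6.68, 6.42, 6.38 and 6.49 at 0.7 ppm. These did not overlap, but the change of -0.48 ± 0.15 had an adjusted p of 0.431.

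Set against all genes, 5 of the 10 genes were called lower at 15 ppm for 13 w, where 20.6% of all 14217 genes were called lower and 44.2% in either direction. Their median change was -0.25, against -0.02 over all genes. At 10 ppm for 13 w, 2 of the 10 were called lower, against 12.5% of all genes. For 4 w at 15 ppm it was 1 of the 10, against 16.1% of all genes, with a median change of -0.02, against 0.01 over all genes. For 5 d at 15 ppm, 0 of the 10 were called by limma, against 37.7% of all genes called in either direction. At the looser threshold of an unadjusted p under 0.05 there were 4 of the 10. The 37.7% of all genes pass that threshold too, so the share of all genes is at least that. The 4 are therefore not read as a result about these genes. The share at 4 w and that at 10 ppm for 13 w lie near those of all genes. No other dose comparison called any of the 10.

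The genes around them were described from lists of known roles. Of 21 enzymes that build mucin O-glycans, 3 rose and 7 fell at 15 ppm for 13 w, with a median of -0.12 against -0.02 over all genes. These 10 of 21 are near the 44.2% of all genes called in either direction. By direction, 23.5% of all genes were called higher and 20.6% lower. St6galnac2, a sialyltransferase, fell by 0.82 ± 0.08 (adjusted p = 3.46e-12), and Galnt2, which starts O-glycans, by 0.42 ± 0.05 (adjusted p = 4.4e-09). C1galt1c1, the chaperone of the core galactosyltransferase, fell by 0.39 ± 0.09 (adjusted p = 0.000154). Fut1, a fucosyltransferase, rose by 2.44 ± 0.29 (adjusted p = 4.54e-10). At 15 ppm 0 rose and 6 fell at 5 d, where 37.7% of all genes were called, 19.5% of them lower. At 4 w 2 rose and 5 fell, where 37.4% of all genes were called in either direction and 16.1% lower. Galnt2 and St6galnac2 were among those that fell at all 3 times.

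Of 18 other genes of goblet cells, 2 rose and 5 fell at 15 ppm for 13 w, 2 rose and 4 fell at 4 w, and 0 rose and 4 fell at 5 d. In total these counts are at or below the shares of all genes called in either direction. Those shares were 44.2% at 13 w, 37.4% at 4 w and 37.7% at 5 d. The shares called lower were 20.6% at 13 w, 16.1% at 4 w and 19.5% at 5 d. Foxa1, a forkhead factor of airway epithelium, fell by 1.25 ± 0.19 at 5 d, 1.06 ± 0.19 at 4 w and 1.25 ± 0.19 at 13 w (adjusted p of 4.33e-07, 1.12e-05 and 2.83e-07). Xbp1, a factor of secretory capacity, fell by 0.50 ± 0.10 at 13 w (adjusted p = 2.21e-05). Klf4, which goblet cells of the gut share with stratified squamous epithelium, rose by 0.88 ± 0.15 (adjusted p = 1.63e-06), and Tff1, a trefoil peptide of the stomach, by 0.62 ± 0.12 (adjusted p = 3.47e-05). Of the other mucins only Muc2 and Muc13 were measured, and neither was called at 15 ppm.

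Of 17 other airway secretory proteins, 8 fell and 0 rose at 15 ppm for 13 w, with a median of -0.40 against -0.02 over all genes. Of all genes 20.6% were called lower and 44.2% in either direction. Cyp2f4, the club cell P450, fell by 0.76 ± 0.06 (adjusted p = 7.04e-15), and Scgb1c1, a secretoglobin, by 0.73 ± 0.09 (adjusted p = 1.31e-09). Pigr, which carries IgA across the epithelium, fell by 1.55 ± 0.21 (adjusted p = 1.16e-08), and Sftpd, a collectin, by 0.96 ± 0.14 (adjusted p = 9.69e-08). At 5 d 3 rose and 5 fell, where 18.3% of all genes were called higher and 19.5% lower. Lyz2, a lysozyme that macrophages make too, rose by 1.65 ± 0.23 (adjusted p = 4.25e-08), where 9 of 10 leukocyte markers also rose. The part of leukocytes in that rise was not tested.

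Of 24 signals known to raise mucin in airway cells, 8 rose and 4 fell at 15 ppm for 13 w, 9 rose and 3 fell at 4 w, and 8 rose and 2 fell at 5 d. Of all genes 44.2% were called in either direction at 13 w, 37.4% at 4 w and 37.7% at 5 d. The totals at 13 w and 5 d are near those shares. By direction, 23.5% of all genes were called higher and 20.6% lower at 13 w. These shares were 21.3% and 16.1% at 4 w, and 18.3% and 19.5% at 5 d. Relatively more of the 24 rose, and fewer fell, but the list as a whole was not tested. Areg, an EGF receptor ligand, rose by 5.43 ± 0.32 at 13 w (adjusted p = 8.5e-20), with mean signals of 10.65 at 15 ppm and 5.22 at 0 ppm. Hbegf, another ligand, rose by 2.14 ± 0.18 (adjusted p = 2.04e-14) and Nrg1, an ERBB ligand, by 1.49 ± 0.16 (adjusted p = 2.39e-11). Notch1 rose by 1.92 ± 0.18 (adjusted p = 6.43e-13). Areg rose by 4.86 ± 0.32 at 5 d and 5.23 ± 0.32 at 4 w as well. In the same comparisons Muc5ac, a known target of EGF receptor signalling in airway cells, and Muc5b were not called. The intervals of Muc5ac given above are wide, so a missing call does not show that it stayed unchanged. Whether these ligands acted on the mucins was not tested.

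**Figure D3:**
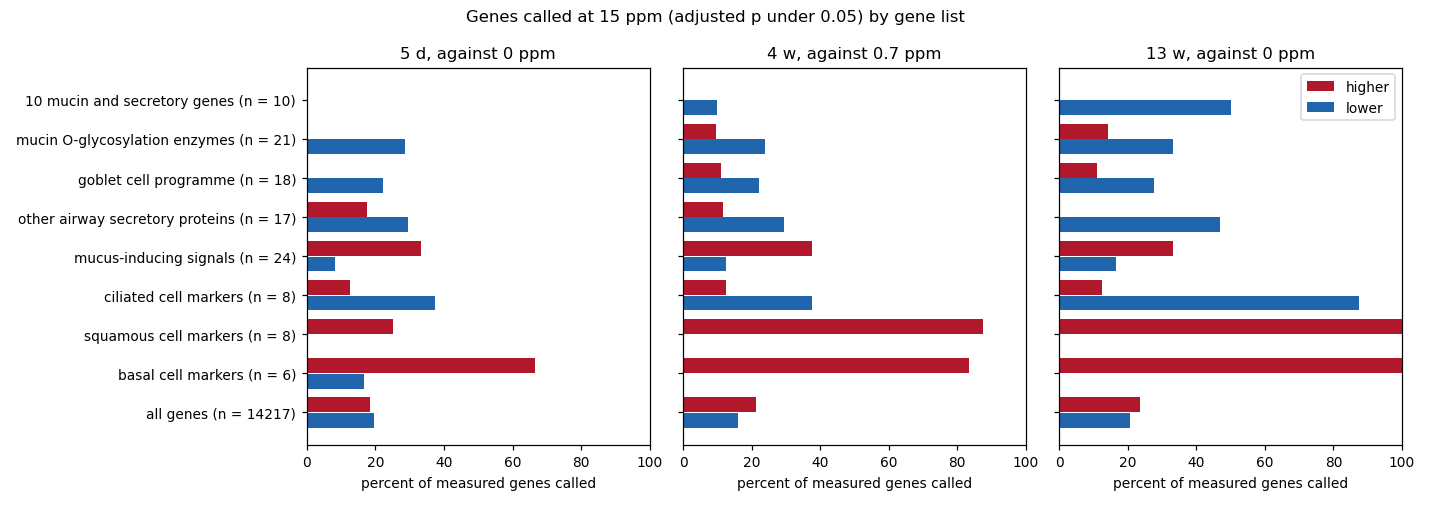
Percent of the measured genes of each list that were called higher (red) or lower (blue) at 15 ppm, against 0 ppm at 5 d and 13 w and against 0.7 ppm at 4 w, with all 14217 genes in the bottom row. At 13 w all 8 squamous and all 6 basal markers were called higher and 7 of 8 ciliated markers lower, beside 5 lower and 0 higher among the 10 mucin and secretory genes. Of all genes 23.5% were called higher and 20.6% lower at 13 w.

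Markers of other cell types moved at 15 ppm for 13 w too, where 23.5% of all genes were called higher and 20.6% lower. In the 15 ppm group of 13 w, 8 of 8 squamous markers rose, with mean signals of 11.9 to 12.7 over the animals, against 8.93 to 9.87 at 0 ppm. Of the basal markers 6 of 6 rose, with means of 11.5 to 11.9 against 10.8 to 10.9. Of the ciliated markers 7 of 8 fell and 1 rose, with means of 7.89 to 8.63 against 8.59 to 8.98. The ranges of the ciliated means overlapped, and those of squamous and basal means did not. Of 6 nasal gland markers 0 were called, all 6 with changes below 0, with means of 8.66 to 9.48 against 9.38 to 10.3. Of 10 leukocyte markers 2 fell, with means of 7.48 to 8.26 against 7.28 to 8.11. Of 9 stromal and endothelial markers 3 fell, all 9 with changes below 0. Their means of 8.43 to 9.29, against 9.66 to 10.4 at 0 ppm, did not overlap. Of 7 olfactory markers 0 were called, all 7 with changes below 0. The leukocyte count is near the share of all genes called lower. At 15 ppm for 4 w, where Agr2 fell, 7 of 8 squamous markers rose, with means of 11.5 to 12.2 against 8.21 to 9.93 at 0.7 ppm. There 5 of 6 basal and 7 of 10 leukocyte markers rose, and of 8 ciliated markers 3 fell and 1 rose, with means of 8.39 to 8.87 against 8.82 to 9.10. Of 6 nasal gland markers 1 rose at 4 w. There 21.3% of all genes were called higher and 16.1% lower, so the gland count is near the background. The part of these cell types in the falls of Agr2, Muc1, Spdef, Tff3 and Bpifa1 was not tested.

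Animals of the same dose and time differed together in several of these genes. Each animal's deviation from its group mean was correlated over the 68 animals, with p from 100000 permutations within groups and adjusted over 45 pairs. Of the pairs, 16 had an adjusted p under 0.05 for both Pearson's r and Spearman's rho, 14 of them above 0 and 2 below. The share of such pairs among other genes was not measured, so the count is not read as particular to these genes. Muc5ac and Spdef had the highest, r = 0.69 and rho = 0.68 (permutation p = 1e-05, the smallest they can give, adjusted p of 0.000225 and 0.00045). It was 0.73 at 5 d, 0.68 at 4 w and 0.68 at 13 w, and 0.70 without the 2 animals farthest from the median of Muc5ac. Animals with more Spdef signal had more Muc5ac signal within each time.

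Muc5b went with Bpifa1 (r = 0.58, rho = 0.48) and with Muc5ac (r = 0.56, rho = 0.55). All relations of Bpifa1 rest on signals close to the highest value on any array. The pair Agr2 and Scgb1a1 had r = 0.54 and rho = 0.47, but r was 0.71 at 5 d, 0.65 at 4 w and -0.04 at 13 w, so it does not hold at 13 w. Likewise Muc5b and Scgb1a1 had r = 0.52 and -0.02 at 13 w. Spdef and Foxa3 had r = 0.52 and rho = 0.52, but the signals of Foxa3 were low in every group. The part of background signal in that relation was not tested. Below 0 were Muc1 with Bpifa1 (r = -0.39, rho = -0.41) and Muc5b with Tff3 (r = -0.34, rho = -0.51). By time, r was -0.64 at 5 d, -0.34 at 4 w and -0.13 at 13 w for Muc1 with Bpifa1. It was -0.74 at 5 d, -0.04 at 4 w and -0.63 at 13 w for Muc5b with Tff3, so that pair does not hold at 4 w.

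**Figure D4:**
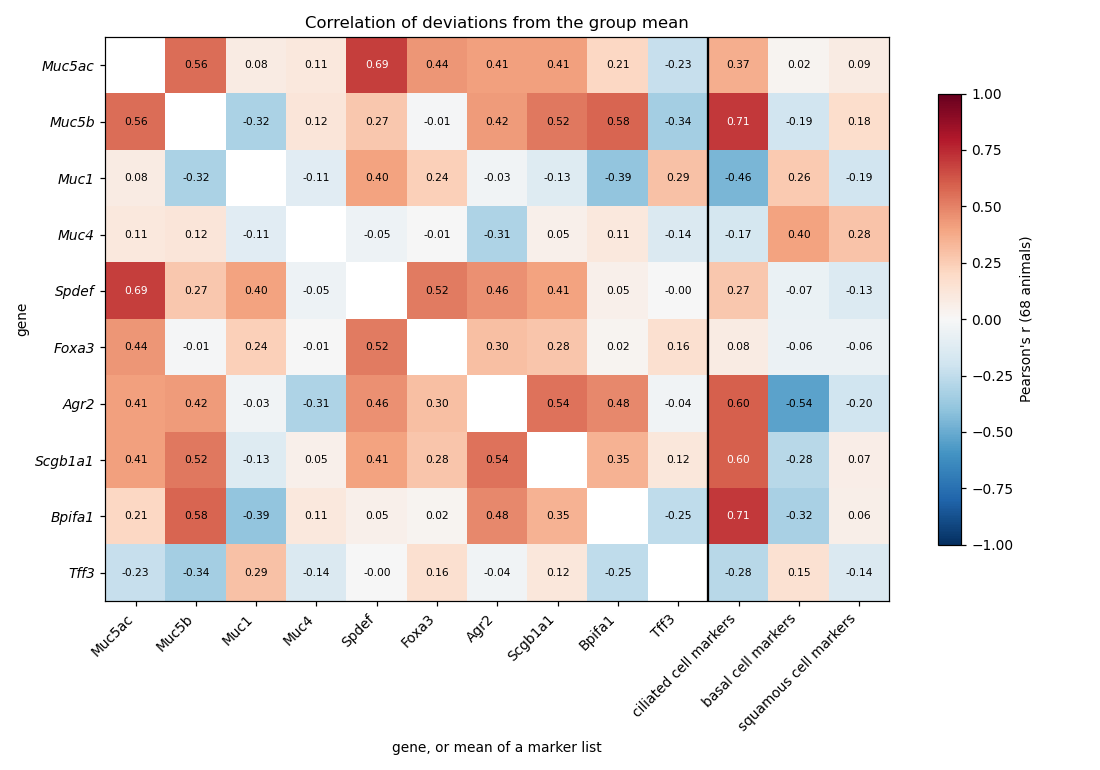
Pearson's r between the deviations of 68 animals from their group means, for each pair of the 10 genes and, right of the line, for each gene with the mean of 3 marker lists. The highest values are 0.71 for Muc5b and for Bpifa1 with ciliated markers and 0.69 for Muc5ac with Spdef, and Muc1 runs opposite to ciliated markers (-0.46).

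The same deviations were set against the mean of each of 7 marker lists, 70 relations in all, adjusted over them. Ciliated markers went with Muc5b (r = 0.71, rho = 0.68), Bpifa1 (r = 0.71, rho = 0.61), Scgb1a1 (r = 0.60, rho = 0.60) and Agr2 (r = 0.60, rho = 0.54), with permutation adjusted p between 0.000233 and 0.0013. The relation of Scgb1a1 was 0.62 at 5 d, 0.88 at 4 w and 0.12 at 13 w, so it does not hold at 13 w. Muc5ac went with ciliated markers less closely (r = 0.37, rho = 0.41, permutation adjusted p of 0.043 and 0.018). Muc1 ran opposite, with r = -0.46 and rho = -0.41 (permutation adjusted p of 0.0131 and 0.0212), and r of -0.79 at 5 d, -0.22 at 4 w and -0.17 at 13 w. Agr2 also ran opposite to basal markers (r = -0.54, rho = -0.51), and Muc4 with them (r = 0.40, rho = 0.43). For Agr2 and basal markers r was -0.68 at 5 d, -0.61 at 4 w and -0.17 at 13 w, so it was weak at 13 w. Olfactory markers went with Muc5b (r = 0.51, rho = 0.52) and Bpifa1 (r = 0.51, rho = 0.49), genes that also went with ciliated markers. Muc1 (r = -0.58, rho = -0.55) and Tff3 (r = -0.37, rho = -0.57) ran opposite to them, Tff3 not at 4 w (r = 0.04). Stromal and endothelial markers ran opposite to Scgb1a1 (r = -0.49, rho = -0.37) and Agr2 (r = -0.46, rho = -0.42). At 13 w these r were 0.44 and 0.14, so neither relation holds there. The arrays share RNA quality and dissection between genes, whose part in these relations was not tested. The limit of the Bpifa1 signals, close to the highest value on any array, holds here too.

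**Figure D5:**
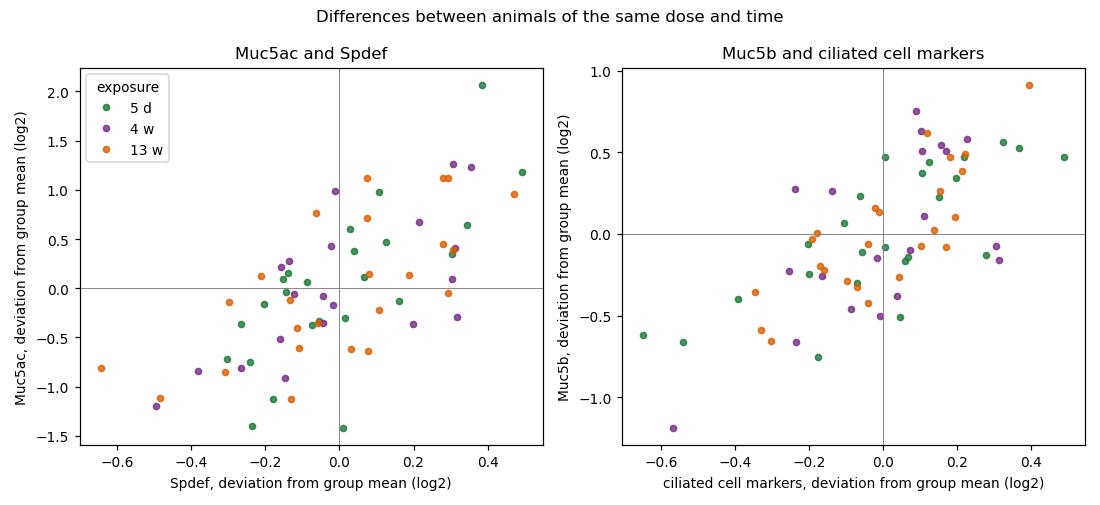
Deviation of each of 68 animals from its group mean on the log2 scale: Muc5ac against Spdef (left) and Muc5b against the mean of 8 ciliated markers (right), coloured by exposure time. The points rise from lower left to upper right in both panels, with r = 0.69 on the left and 0.71 on the right.

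Across the 17 group means, genes were ranked by Pearson's r with each called gene, among 11739 other genes that reached a mean of 6 in some group. The nearest to Agr2 were Golm1 (r = 0.941), Basp1 (0.928) and Capn9 (0.924), the nearest to Muc1 Rap1gap (0.913), Endov (0.908) and Dcaf8 (0.902), and the nearest to Spdef Gtf2h5 (0.889), Tada2a (0.884) and Sclt1 (0.884). Those of Tff3 were Clec4f (0.837), Kctd18 (0.802) and Tlcd3b (0.785), and those of Bpifa1 were C20h22orf15 (0.792), C8h11orf97 (0.785) and Sult1d1 (0.761). The group means share doses and times, so these values describe likeness of profile only.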

How the data were processed

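Cells of 68 rats were profiled on 1 array each. Per the submitters' processing notes, the authors used GCOS 1.0 and RMA; the deposited log2 signals were used without further scaling. Of 31099 probe sets, 20826 named 1 gene, 436 several and 9831 none; only the first kind was used, and 57 array controls were left out. For 4525 genes with 2 or more probe sets the one with the highest mean was taken. Arrays give no depth, and the 4 animals per group limit the precision, with a median SE of 0.104 for a change.

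Limma 3.58.1 in R 4.3.3 fitted 17 group means to all arrays (51 residual and 2.85 prior degrees of freedom), with Benjamini-Hochberg adjustment over 14217 genes in each comparison. Each dose was compared with 0 ppm at its time, or with 0.7 ppm at 4 w, and responses were compared between times by interaction terms. Tables and correlations were made in Python 3.11.15 with numpy 2.4.6 and pandas 2.3.3. Simulated data for 15 ppm against 0 ppm at 13 w covered 14217 genes. There 40 of 50 genes raised by 0.5 and 38 of 50 changed by -0.5 were called. So were 43 of 50 at 1 and 45 of 50 at -1, and 6 of 172 calls fell on unchanged genes. The simulation drew noise independently for each gene and changed few genes, picked at random. In the data 44.2% of all genes were called, so these rates need not hold there, nor for genes of large spread such as Muc5ac.

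The genes and lists were chosen with earlier results of these data known. The text names all 10 genes, up to 4 called genes with the smallest adjusted p of each other list at 15 ppm, and the 3 genes most like each called gene. For 19 of the 20 samples at 4 w the treatment field gives 5 days, but all other labels give 4 weeks, which was followed. The titles of 0 ppm samples carry codes that differ between 5 d and 13 w and from the exposed samples, with no meaning given; a batch behind them could not be told apart from dose. Animals were taken as independent, and no label pairs them. Alternatives were median centring, cyclic loess, a filter on dim genes, the mean of all probe sets, RNA integrity as a covariate, only the times compared, array weights, another reference and each animal left out. Leaving out the arrays with no RNA integrity number was chosen after seeing the data.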

Additional observations from a re-analysis of the deposited data

Results flagged for a closer look

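Of 170 combinations of gene and group, 5 (2.94%) held 1 animal that stood apart from the other 3, where chance alone would mark about 1 in 20 groups. Muc5b in animal 375 at 15 ppm for 13 w was 11.98, against 10.71 to 10.80 in the others. Spdef in animal 356 at 15 ppm for 5 d was 8.38, against 7.93 to 8.00. Agr2 in animal 349 at 10 ppm for 13 w was 13.10, against 13.49 to 13.55. Scgb1a1 in animal 237 at 0.7 ppm for 5 d was 6.19, against 6.64 to 6.73. Scgb1a1 in animal 300 at 6 ppm for 5 d was 6.48, against 6.68 to 6.71. Without animal 356 Spdef and Muc1 at 15 ppm for 5 d passed the test (adjusted p of 0.0372 and 0.0266), and without animal 349 the step of Agr2 from 10 to 15 ppm at 13 w did (adjusted p = 0.0275).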

How the results depend on the processing

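No called change reversed its sign in any alternative. The falls of Muc1, Spdef and Agr2 at 15 ppm for 13 w and of Agr2 at 4 w were called under every alternative run, although taking the mean of all probe sets cannot move genes with 1 probe set. Of single changes under alternative settings, 28 lost a call and 36 gained one. At 15 ppm for 13 w, 5 of the 10 genes were called, but 3 with RNA integrity as a covariate, 4 with cyclic loess, 4 without the arrays that have no RNA integrity number, and 4 to 5 without each animal in turn. With 0.7 ppm as the reference it was 5 again, with Muc5ac in place of Bpifa1. At 10 ppm for 13 w it was 2, with Agr2 in place of Spdef when only the times compared were fitted and Muc5ac in place of Muc1 with 0.7 ppm as the reference, but 1 with that covariate, 1 without the arrays that have no RNA integrity number, and 0 to 2 without each animal. At 6 ppm for 13 w it was 0, but 1 (Muc1) with cyclic loess, that covariate, those arrays left out, only the times compared, or array weights, and 0 to 1 without each animal. At 15 ppm for 5 d it was 0, but 1 with that covariate (Muc1), 2 with only the times compared (Muc4 and Spdef), 2 with array weights (Spdef and Agr2), 1 with 0.7 ppm as the reference (Muc4), and 0 to 2 without each animal. At 6 ppm for 5 d it was 0, but 1 (Muc5ac) with 0.7 ppm as the reference. At 2 ppm for 4 w it was 0, but 1 (Scgb1a1) with the 0 ppm arrays of 5 d and 13 w as the reference. For the difference of the 15 ppm responses between 13 w and 5 d it was 0, but 1 (Bpifa1) with array weights and 0 to 1 without each animal. The cause of these differences was not tested. No paired analysis was possible because the labels share no replicate numbers between groups. Other probe sets of these genes could not be tried, since each has 1. Foxa3 and Scgb1a1 are limited by low signal, and Tff3 was the next dimmest.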
